A study of Homo sapiens with 8 samples.

Results

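Of the 61533 genes in the deposited count tables, 10 genes of the autophagy pathway are described here. They were chosen by name, with earlier results of these data known. They are the cargo receptors SQSTM1 and NBR1 and the LC3 and GABARAP family genes MAP1LC3B, GABARAPL1 and GABARAPL2. The others are the early-acting genes ULK1, WIPI1 and ATG14 and the transcription factors TFEB and TFE3. The RNA came from A431, a line from an epidermoid carcinoma, and CAL27, a line from a squamous carcinoma of the tongue, both established human lines. Cells received the solvent DMSO or an inhibitor named NEDD8i for 16 h, giving 4 groups of 2 libraries: A431 with DMSO, A431 with NEDD8i, CAL27 with DMSO and CAL27 with NEDD8i. All groups were grown subconfluent and given fresh medium with the compound, and the labels name no engineered allele. The labels give neither the compound's identity nor its dose, and each line stands for 1 tumour. No label states that the replicates were separate cultures. The p-values therefore reflect the spread among these libraries alone, and that spread may be technical.

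Macroautophagy encloses cytoplasm in a double membrane, the autophagosome, which fuses with lysosomes. The ULK1 kinase complex starts the process, the ATG14-containing PI3-kinase complex marks the membrane with a phosphoinositide, and WIPI proteins read that mark. Proteins of the ATG8 family, the LC3 and GABARAP proteins, are then joined to the membrane lipid and hold receptors such as SQSTM1 (p62) and NBR1, which carry ubiquitin-tagged cargo. TFEB, TFE3 and MITF are related transcription factors that bind E-boxes in promoters of lysosomal and autophagy genes and are held in the cytoplasm by mTORC1. NEDD8 is a ubiquitin-like protein whose attachment activates cullin-RING ubiquitin ligases. One of these, the cullin-3 ligase with the adaptor KEAP1, marks the antioxidant factor NRF2 for destruction, and SQSTM1 both binds KEAP1 and is an NRF2 target.

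The promoter windows of the members, the 250 bases before each start site in RefSeq (GRCh38.p14), were read for motifs on both strands. All 10 members matched, with 15 windows, because SQSTM1, NBR1 and TFEB have more than 1 start. CACGTG, the E-box core read by TFEB and its relatives, stood in 1 of the 15 windows, that of ATG14, and in 6.35% of 35116 windows of the same length from all genes. TGACNNNGC, the antioxidant response element read by NRF2, also stood in 1 window, that of MAP1LC3B, against 10.9% of all windows. The matches lie in different windows and so do not overlap, and a match describes the letters only. Shown are the 2 windows with a match and that of TFE3, a member that rose in both lines and whose window holds neither motif, with the matches in capitals. The ATG14 match, a palindrome that reads the same on either strand, begins 21 bases before the start (chr14:55411831-55412080, minus strand). The MAP1LC3B match begins 46 bases before the start, at chr16:87392279-87392308 on the plus strand with 30 bases shown. That start lies inside the gene as the count tables annotate it, and the window lies in an exon of a longer transcript, so only the bases around the match are shown. The TFE3 window lies at chrX:49043358-49043607, minus strand.
ATG14: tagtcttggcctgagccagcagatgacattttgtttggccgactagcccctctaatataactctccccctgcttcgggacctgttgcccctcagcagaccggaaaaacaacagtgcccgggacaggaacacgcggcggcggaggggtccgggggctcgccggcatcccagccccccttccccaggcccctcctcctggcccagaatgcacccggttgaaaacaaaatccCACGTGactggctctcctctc
MAP1LC3B: cgcgagtcaccTGACCAGGCtgcgggctga
TFE3: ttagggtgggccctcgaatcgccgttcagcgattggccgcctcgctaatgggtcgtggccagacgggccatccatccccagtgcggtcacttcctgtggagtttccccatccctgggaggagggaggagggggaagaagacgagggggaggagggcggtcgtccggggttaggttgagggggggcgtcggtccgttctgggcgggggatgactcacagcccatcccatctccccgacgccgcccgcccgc

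The 8 libraries held 49037868 to 62509817 counts. Levels are given as CPM, the count as a rate per 1e6 counts of the library, scaled by edgeR's TMM factors, for replicate 1 and then replicate 2. All 10 squamous epithelial markers were tested and together reached at least 10140 CPM in each library. Summed markers of other cell types stayed at or below 39 CPM: 6.48 to 39 for fibroblasts, 5.22 to 21.9 for endothelium, 0.919 to 17.8 for leukocytes and 0.76 to 3.09 for melanocytes. PTPRC, TYR and DCT had 0 counts in every library. Mitochondrial RNA took 1.96% to 3.15% of counts in A431 and 1.02% to 1.77% in CAL27, and was lower under NEDD8i in each line. Its part in the results was not tested. In bulk RNA, fewer cells of a type and less RNA per cell cannot be told apart.

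All 10 members passed the filter on low counts. Changes are log2 fold changes with an approximate standard error, and a gene is called where the edgeR quasi-likelihood test gave an adjusted p under 0.05. In A431, 8 of the 10 members were called, where 43.6% of all genes tested were called, and in CAL27 7 were, where 49.6% were. A stricter filter, at least 1 CPM in 2 libraries, kept 13901 genes and all 10 members. Of those genes, 4097 were called higher and 3982 lower in A431, and 4311 and 4750 in CAL27. These shares exceed those over all genes tested, which include many genes with low counts. In A431, NEDD8i raised 6 members (SQSTM1, MAP1LC3B, GABARAPL1, WIPI1, TFEB and TFE3), while 22.5% of the 18738 genes tested were called higher. It lowered 2 (NBR1 and ATG14), while 21.1% of all genes were called lower. In CAL27 it raised 5 (MAP1LC3B, GABARAPL1, GABARAPL2, ATG14 and TFE3), beside 23.2% of all genes, and lowered 2 (WIPI1 and TFEB), beside 26.4%. The median log2 change of the members was 0.32 in A431 and 0.20 in CAL27, against -0.01 and -0.04 over all genes tested. Both directions were thus present among the members in each line.

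**Figure D1:**
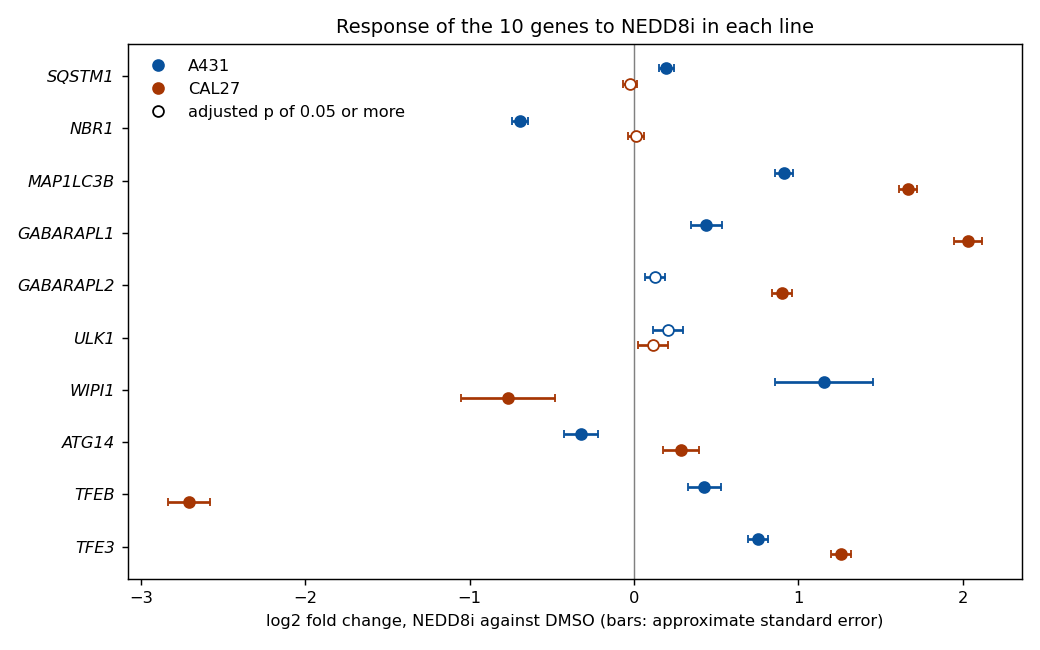
Log2 fold change of each of the 10 genes under NEDD8i against DMSO in A431 (blue) and CAL27 (brown), with approximate standard errors. Open points did not pass the test. TFEB, WIPI1 and ATG14 were called in opposite directions in the lines, with TFEB at 0.43 in A431 and -2.71 in CAL27.

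The responses of MAP1LC3B, GABARAPL1 and GABARAPL2, the ATG8 genes among the members, were higher in CAL27 than in A431. MAP1LC3B (ENSG00000140941.14, chr16:87383953-87404779, plus strand, GRCh38) encodes LC3B, the usual marker protein of autophagosomes. Its level was 70.1 and 70.9 CPM in A431 with DMSO and 135.8 and 129.5 with NEDD8i. In CAL27 it was 69.9 and 71.6 CPM with DMSO and 232.8 and 217 with NEDD8i. The lines overlapped under DMSO, and every NEDD8i library stood above every DMSO library. MAP1LC3B rose 1.88-fold in A431 (log2 0.91 ± 0.05, edgeR adjusted p = 3.72e-10) and 3.18-fold in CAL27 (1.67 ± 0.05, adjusted p = 7.99e-14). The difference between the responses, 0.76 ± 0.08, passed its own test (edgeR adjusted p = 5.81e-07). Reads that fit both MAP1LC3B and its near-identical copy MAP1LC3B2 were dropped in counting.

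GABARAPL1 (ENSG00000139112.11, chr12:10212836-10223128, plus strand), a GABARAP-type ATG8 protein, gave the largest rise among the 10 members in CAL27. It stood at 14.6 and 13.2 CPM in A431 with DMSO and at 17.1 and 20.6 with NEDD8i. CAL27 held 30.2 and 30.5 CPM with DMSO and 126.4 and 121.9 with NEDD8i, so the 4 groups did not overlap. The rise was 1.36-fold in A431 (log2 0.44 ± 0.09, edgeR adjusted p = 0.00089) and 4.08-fold in CAL27 (2.03 ± 0.09, adjusted p = 2.40e-12). CAL27 exceeded A431 by 1.59 ± 0.13 in its response (edgeR adjusted p = 3.33e-08).

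GABARAPL2 (ENSG00000034713.8, chr16:75566375-75577881, plus strand), also known as GATE-16, acts late in autophagosome maturation. In A431 its level was 69.2 and 69.4 CPM with DMSO and 74 and 77.3 with NEDD8i. In CAL27 it was 50.1 and 51.8 CPM with DMSO and 91.7 and 98.5 with NEDD8i. CAL27 was thus the lower line under DMSO and the higher line under NEDD8i, with no overlap between groups. The change in A431 was 0.13 ± 0.06 and did not pass (edgeR adjusted p = 0.110), whereas CAL27 rose 1.86-fold (log2 0.90 ± 0.06, adjusted p = 1.56e-09). The responses differed by 0.77 ± 0.09 (edgeR adjusted p = 2.33e-06).

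The other ATG8 genes gave few counts. MAP1LC3A, an LC3 gene, had 0 to 28 counts in a library, and its call in CAL27 (log2 3.82 ± 1.42, edgeR adjusted p = 0.0343) rested on 28 counts in replicate 2 with NEDD8i. Without that library its change was 1.97 (adjusted p = 0.436), and without CAL27 DMSO replicate 2 it was 2.82 (adjusted p = 0.218). With the replicate number as a block it was 3.75 and also lost its call (adjusted p = 0.0668). MAP1LC3B2 had 18 to 121 counts. It rose by 2.17 ± 0.52 in CAL27 (edgeR adjusted p = 0.00203) and stood at 1.23 ± 0.52 in A431 (adjusted p = 0.066). The A431 value was called with counts halved (1.21, edgeR adjusted p = 0.048), without NEDD8i replicate 1 (1.67) and without CAL27 DMSO replicate 2 (1.23). Its values are uncertain for the copy it shares with MAP1LC3B. MAP1LC3C had counts only in CAL27 with NEDD8i, 2 and 6, and was not tested. GABARAP had 0 to 21 counts and was not tested. Exons of other genes, where reads were dropped, cover 48.2% of its exonic bases. They cover 16.2% of its last 500 exonic bases, where a 3′ assay places its reads. Whether this overlap has a part in the low counts of GABARAP was not tested.

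**Figure D2:**
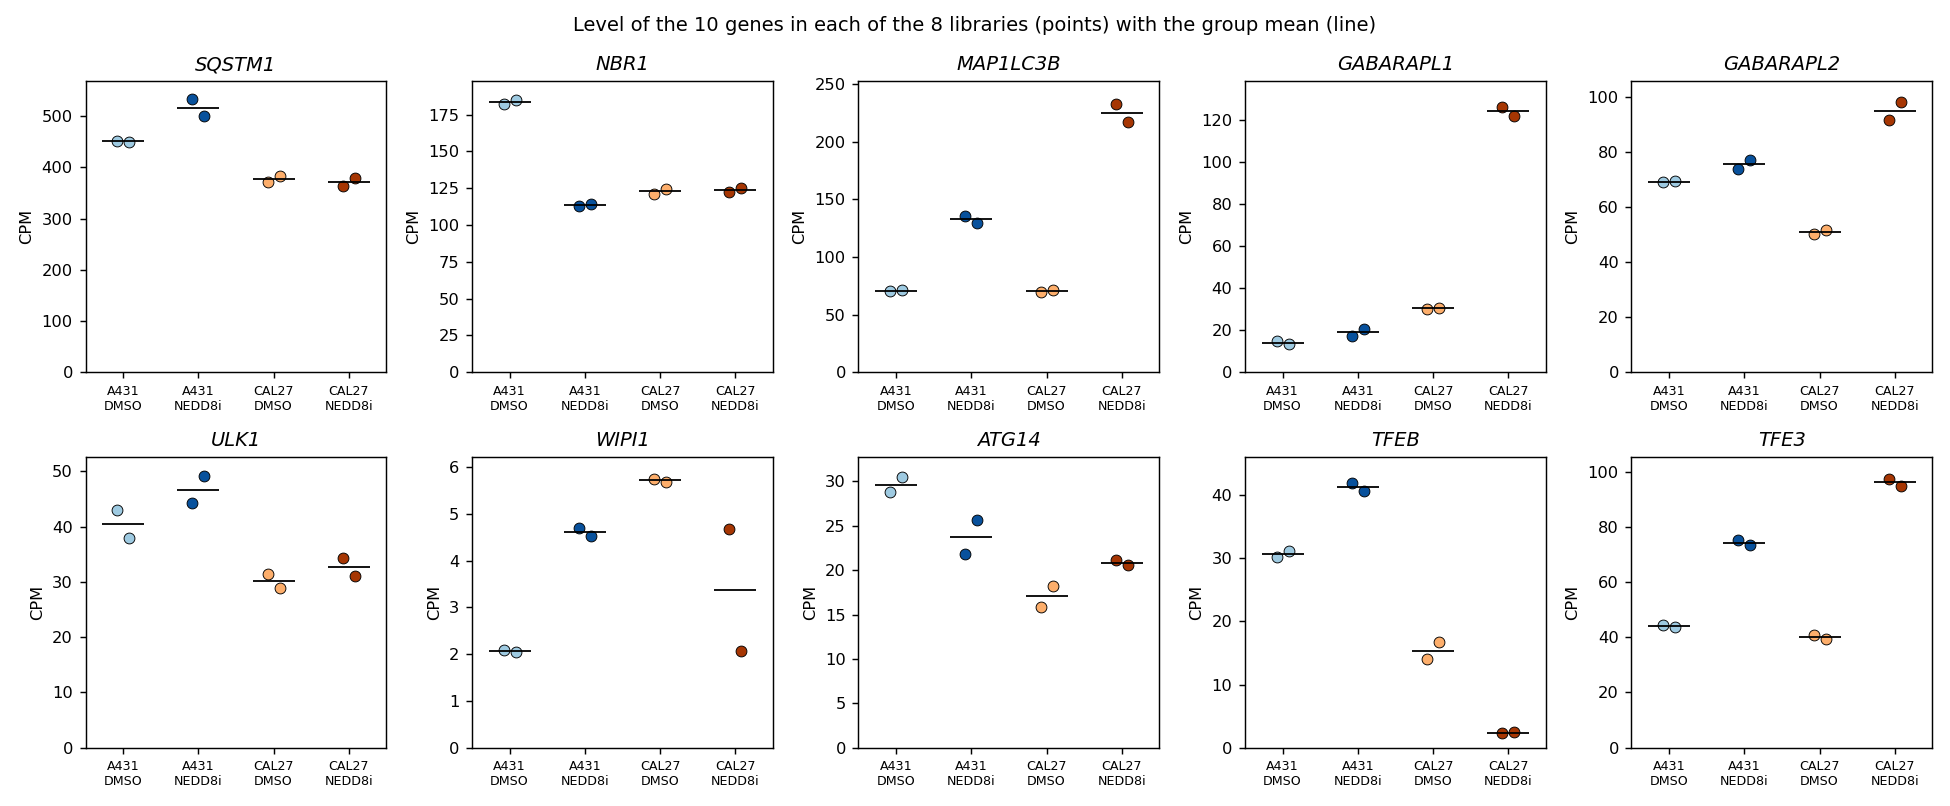
CPM of each of the 10 genes in every library (points) with the group mean (line), 1 panel per gene with its own axis from 0. MAP1LC3B, GABARAPL1, GABARAPL2 and TFE3 are highest in CAL27 with NEDD8i, where TFEB is lowest at 2.27 and 2.44 CPM.

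The receptors were called in opposite directions in A431 and were not called in CAL27. SQSTM1 (ENSG00000161011.20, chr5:179820885-179838078, plus strand) encodes p62, which gathers ubiquitin-tagged cargo. It stood at 452 and 450.1 CPM in A431 with DMSO and 533 and 501 with NEDD8i. In CAL27 it stood at 372 and 383 CPM with DMSO and 363 and 379 with NEDD8i. The A431 groups did not overlap, and the CAL27 groups did. SQSTM1 rose 1.15-fold in A431 (log2 0.20 ± 0.04, edgeR adjusted p = 0.00127) and was at -0.02 ± 0.04 in CAL27 (adjusted p = 0.702). The responses differed by -0.22 ± 0.06 (edgeR adjusted p = 0.00998). That call was lost without A431 NEDD8i replicate 1 (-0.16, adjusted p = 0.0986), without CAL27 DMSO replicate 2 (-0.19, adjusted p = 0.0701) and with upper quartile scaling (-0.15, adjusted p = 0.0821).

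The SQSTM1 values carry a counting limit. Exons of the antisense gene MRNIP cover 41.3% of its exonic bases and 100% of the last 500, where a 3′ assay places its reads. Counting ignored strand and dropped reads over more than 1 gene, so these values come from the remaining exonic bases. MRNIP itself had 16 to 193 counts. Only 4 other NRF2 targets, picked by name, were read, and each rose in both lines. NQO1, a quinone reductase, rose by 1.63 ± 0.04 in A431 and 1.91 ± 0.04 in CAL27. GCLM, of glutathione synthesis, rose by 2.51 ± 0.04 and 2.25 ± 0.04. TXNRD1, thioredoxin reductase, rose by 3.08 ± 0.03 and 3.32 ± 0.04, and SLC7A11, the cystine transporter, by 3.43 ± 0.06 and 4.34 ± 0.07. Whether the counting limit has a part in how SQSTM1 differs from these genes was not tested.

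NBR1 (ENSG00000188554.15, chr17:43170481-43211689, plus strand), a receptor that works with SQSTM1, fell in A431. It held 182.5 and 184.9 CPM there with DMSO and 113 and 114.4 with NEDD8i. CAL27 held 121.2 and 124.6 CPM with DMSO and 122.5 and 125.5 with NEDD8i, and these groups overlapped. The A431 fall was 1.61-fold (log2 -0.69 ± 0.05, edgeR adjusted p = 2.97e-09), while the CAL27 change was 0.01 ± 0.05 (adjusted p = 0.871). The responses differed by 0.70 ± 0.07 (edgeR adjusted p = 3.76e-07).

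Of the early-acting genes, ULK1 did not pass the test in either line. ULK1 (ENSG00000177169.10, chr12:131894622-131923150, plus strand) is the kinase that starts autophagosome formation. Its level was 43 and 37.9 CPM in A431 with DMSO, 44.3 and 49.1 with NEDD8i, 31.4 and 28.9 in CAL27 with DMSO, and 34.4 and 31 with NEDD8i. The CAL27 groups overlapped and the A431 groups did not. Changes were 0.21 ± 0.09 in A431 (edgeR adjusted p = 0.0744) and 0.12 ± 0.09 in CAL27 (adjusted p = 0.320). ULK1 was called higher in A431 without DMSO replicate 1 (0.31, adjusted p = 0.0258) and when the A431 libraries were fitted alone (0.21, adjusted p = 0.0422).

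ATG14 (ENSG00000126775.9, chr14:55366391-55411830, minus strand), the subunit that directs the PI3-kinase complex to autophagosome formation, moved in opposite directions. It stood at 28.8 and 30.5 CPM in A431 with DMSO and 21.8 and 25.6 with NEDD8i. It stood at 15.9 and 18.2 CPM in CAL27 with DMSO and 21.1 and 20.5 with NEDD8i. No neighbouring groups overlapped, and NEDD8i brought the lines closer. The changes were -0.32 ± 0.11 in A431 (edgeR adjusted p = 0.0202) and 0.29 ± 0.11 in CAL27 (adjusted p = 0.0357), and they differed by 0.61 ± 0.15 (adjusted p = 0.00434). Both within-line calls depended on single libraries. The A431 call was lost without DMSO replicate 2 (-0.28, adjusted p = 0.101) or NEDD8i replicate 1 (-0.20, adjusted p = 0.246). The CAL27 call was lost without DMSO replicate 1 (0.21, adjusted p = 0.25), NEDD8i replicate 1 (0.26, adjusted p = 0.126) or NEDD8i replicate 2 (0.31, adjusted p = 0.0665).

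WIPI1 (ENSG00000070540.13, chr17:68421281-68457496, minus strand), which reads the phosphoinositide on the forming membrane, had the fewest counts of the 10 members, 106 to 376 in a library. Its level was 2.09 and 2.06 CPM in A431 with DMSO and 4.70 and 4.53 with NEDD8i, with no overlap. In CAL27 it was 5.74 and 5.69 CPM with DMSO and 4.68 and 2.07 with NEDD8i, and the replicates of the last group differed widely. WIPI1 rose by 1.16 ± 0.30 in A431 (edgeR adjusted p = 0.00432) and fell by 0.76 ± 0.29 in CAL27 (adjusted p = 0.0351), and the difference was -1.92 ± 0.41 (adjusted p = 0.00147). The CAL27 call was lost without NEDD8i replicate 2 (-0.28, adjusted p = 0.41), without DMSO replicate 1 (-0.74, adjusted p = 0.119) or 2 (-0.75, adjusted p = 0.114), and with DESeq2 (-0.73, adjusted p = 0.06). Exons of the antisense gene ARSG, at 17 to 166 counts, cover 28.3% of its exonic bases and 100% of the last 500, so WIPI1 is undercounted.

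TFEB and TFE3 separated under NEDD8i in CAL27. TFEB (ENSG00000112561.19, chr6:41683978-41736259, minus strand), a principal activator of lysosomal genes, stood at 30.2 and 31.2 CPM in A431 with DMSO and 41.9 and 40.7 with NEDD8i. In CAL27 it stood at 14 and 16.7 CPM with DMSO and 2.27 and 2.44 with NEDD8i, the latter from 122 and 146 counts. None of the 4 groups overlapped. TFEB rose 1.34-fold in A431 (log2 0.43 ± 0.10, edgeR adjusted p = 0.00205) and fell 6.53-fold in CAL27 (-2.71 ± 0.13, adjusted p = 9.10e-12). The responses differed by -3.13 ± 0.16 (edgeR adjusted p = 1.80e-10), the largest difference among the 10 members. Under NEDD8i the CAL27 level was 17.5-fold below that of A431.

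TFE3 (ENSG00000068323.17, chrX:49028726-49043357, minus strand), its close relative, rose in both lines. It held 44.5 and 43.7 CPM in A431 with DMSO and 75.2 and 73.3 with NEDD8i. CAL27 held 40.9 and 39.4 CPM with DMSO and 97.5 and 94.8 with NEDD8i. Every NEDD8i library stood above every DMSO library. The rise was 1.69-fold in A431 (log2 0.75 ± 0.06, edgeR adjusted p = 2.48e-08) and 2.39-fold in CAL27 (1.26 ± 0.06, adjusted p = 1.83e-11), a difference of 0.51 ± 0.09 (adjusted p = 0.0002).

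MITF, a member of this factor family known from melanocytes among other cells, changed opposite to TFEB in each line. Its level was 49.7 and 53.5 CPM in A431 with DMSO and 23.5 and 21.6 with NEDD8i, against 2.85 and 3.57 in CAL27 with DMSO and 11.6 and 12.5 with NEDD8i. No groups overlapped. MITF fell 2.29-fold in A431 (log2 -1.19 ± 0.11, edgeR adjusted p = 5.79e-08) and rose 3.72-fold in CAL27 (1.90 ± 0.13, adjusted p = 9.85e-10), and the responses differed by 3.09 ± 0.16 (adjusted p = 2.67e-10). Of 4 melanocyte markers, TYR and DCT stood at 0 in all libraries, PMEL had 40 to 168 counts (0.741 to 2.92 CPM) and MLANA 0 to 16 counts. Their summed level was 2.08 to 3.09 CPM in A431 with DMSO, 2.38 to 2.71 with NEDD8i, 0.76 to 1.12 in CAL27 with DMSO and 1.17 to 1.25 with NEDD8i. Their part in the MITF result was not tested.

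**Figure D3:**
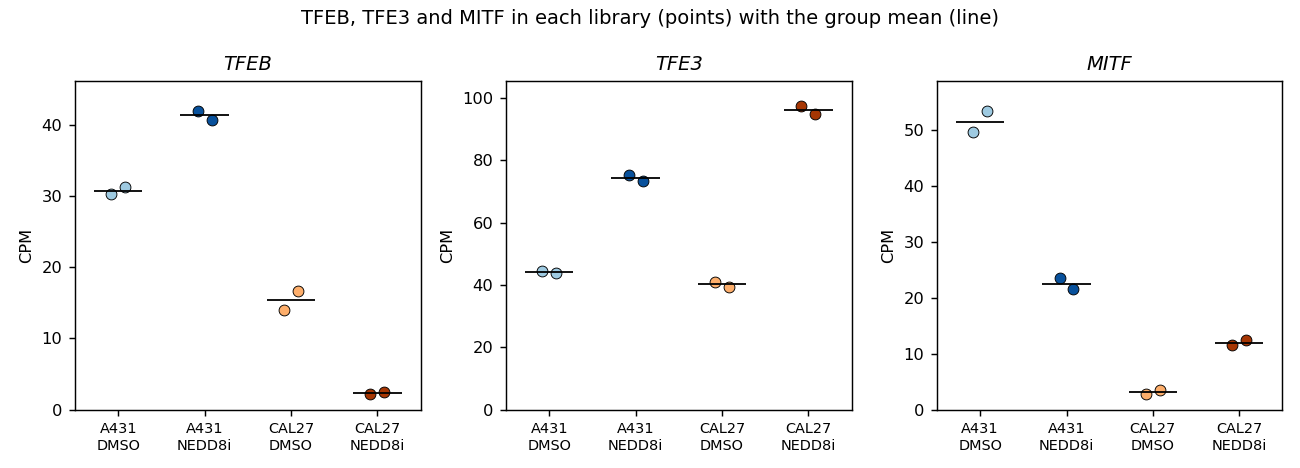
CPM of TFEB, TFE3 and MITF in each library (points) with group means (lines). TFEB is lowest and TFE3 highest in CAL27 with NEDD8i, and MITF falls in A431 from 49.7 and 53.5 CPM to 23.5 and 21.6.

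The difference between the lines in their response was called for 9 of the 10 members, 6 higher and 3 lower in CAL27, where 34.0% of all genes were called, 14.2% higher and 19.8% lower. ULK1 was the exception, at -0.09 ± 0.13 (edgeR adjusted p = 0.666). Of the 13901 genes with at least 1 CPM in 2 libraries, 2852 were called higher and 3626 lower for this difference. Between the lines, 5179 of them were higher and 5040 lower in CAL27 under DMSO, and 5186 and 5414 under NEDD8i. These shares exceed those over all genes tested, given here and below. WIPI1, ATG14 and TFEB were called in opposite directions in the lines, as were 4.99% of all genes, and MAP1LC3B, GABARAPL1 and TFE3 in the same direction, as were 26.1%. Under DMSO, 8 members differed between the lines, as did 58.9% of all genes: 2 members were higher in CAL27 (GABARAPL1 and WIPI1) beside 29.9%, and 6 were lower (SQSTM1, NBR1, GABARAPL2, ULK1, ATG14 and TFEB) beside 29.0%. The levels of MAP1LC3B (log2 0.01 ± 0.05) and TFE3 (-0.13 ± 0.06) did not pass (edgeR adjusted p = 0.946 and 0.0775). GABARAPL1 stood 1.13 ± 0.09 higher and WIPI1 1.46 ± 0.30 higher in CAL27. Line, and anything handled together with a line, cannot be told apart here.

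With NEDD8i, 8 members differed between the lines, as did 62.0% of all genes: 5 members were higher in CAL27 than in A431 (NBR1, MAP1LC3B, GABARAPL1, GABARAPL2 and TFE3) beside 30.2%, and 3 were lower (SQSTM1, ULK1 and TFEB) beside 31.8%. NBR1 was only 0.12 ± 0.05 higher (edgeR adjusted p = 0.0339). That call was lost without A431 NEDD8i replicate 1 (0.12, adjusted p = 0.13) or 2 (0.15, adjusted p = 0.0756), without CAL27 NEDD8i replicate 2 (0.13, adjusted p = 0.0736) and with no filter on low counts (0.13, adjusted p = 0.0632). WIPI1 was at -0.46 ± 0.29 (adjusted p = 0.184), and without CAL27 NEDD8i replicate 1 it was called at -1.15 (adjusted p = 0.00154), against 0.04 without replicate 2 (adjusted p = 0.928). GABARAPL1 showed the largest excess in CAL27, 6.57-fold (log2 2.72 ± 0.09, edgeR adjusted p = 4.32e-14).

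Beyond the members, 111 further genes of the pathway and its regulators were listed, of which 108 were tested. NEDD8i raised 31 (28.7%) and lowered 27 (25.0%) in A431, where 22.5% and 21.1% of all genes were called. It raised 42 (38.9%) and lowered 31 (28.7%) in CAL27, where 23.2% and 26.4% of all genes were called. Of the 13901 genes with at least 1 CPM in 2 libraries, 4097 were called higher and 3982 lower in A431. In CAL27, 4311 and 4750 of them were. Beside these larger shares, neither list share in A431 was in excess, and in CAL27 only the share called higher was. The medians of the listed genes were 0.00 and 0.06. The tested genes RRAGD, SESN3 and PRKAA2 had 0 counts in A431, so they could not be called there but stand in its shares and median. The counts of each list below stand beside the shares given above, and none was tested as a list. Among 19 other selective autophagy receptors, 7 rose and 4 fell in A431 (median 0.07) and 8 rose and 3 fell in CAL27 (median 0.09). The mitophagy receptor BNIP3 rose 22.9-fold in A431, from 6.39 and 6.05 CPM to 144.9 and 140.4, and 4.98-fold in CAL27, from 70.3 and 73.4 CPM to 354 and 361. Its relative BNIP3L rose by 1.50 ± 0.07 in A431 and 1.90 ± 0.07 in CAL27. OPTN, a receptor for mitochondria and bacteria, fell by 1.01 ± 0.07 in A431 and 1.07 ± 0.07 in CAL27. CALCOCO1, a receptor for endoplasmic reticulum, was at -0.83 ± 0.14 in A431 and 0.38 ± 0.14 in CAL27. The CAL27 call of CALCOCO1 was lost without DMSO replicate 1 (0.42, edgeR adjusted p = 0.0732), DMSO replicate 2 (0.37, adjusted p = 0.119) or NEDD8i replicate 1 (0.24, adjusted p = 0.259).

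Of 4 partners or relatives of ULK1 in the initiation complex, 3 were called higher in A431 (all but ATG13) and 4 in CAL27, with 0 lower, and the medians were 0.53 and 0.48. ATG101, which stabilises ATG13, rose by 0.85 ± 0.13 and 1.50 ± 0.13 in A431 and CAL27, though 91.8% of its last 500 exonic bases lie in other genes' exons. The scaffold RB1CC1 (FIP200) rose by 0.41 ± 0.06 and 0.40 ± 0.06. ULK2, the paralog of ULK1, rose by 0.65 ± 0.13 and 0.42 ± 0.13. Its CAL27 call was lost without DMSO replicate 1 (0.39, edgeR adjusted p = 0.0759) or NEDD8i replicate 1 (0.36, adjusted p = 0.0807). ATG13 was at 0.11 ± 0.05 in A431 (adjusted p = 0.082) and rose by 0.55 ± 0.05 in CAL27. The A431 value of ATG13 was called at 0.12 without CAL27 NEDD8i replicate 1 (adjusted p = 0.0459) or 2 (adjusted p = 0.0436).

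Among 8 partners and regulators of the ATG14 complex, 3 rose and 2 fell in each line (medians 0.01 and -0.02). RUBCN, which restrains the complex, rose by 1.33 ± 0.10 in A431 and 1.18 ± 0.10 in CAL27, with 100% of its last 500 exonic bases shared with other genes. AMBRA1, a regulator of BECN1, fell by 0.45 ± 0.07 in A431 and was at -0.11 ± 0.07 in CAL27. PIK3C3, the lipid kinase, fell by 0.34 ± 0.10 in A431 and was at -0.01 ± 0.10 in CAL27, and its A431 call was lost without NEDD8i replicate 1 (-0.33, edgeR adjusted p = 0.0503). NRBF2 rose by 0.49 ± 0.09 in CAL27 and 0.25 ± 0.09 in A431, and the latter was lost without DMSO replicate 1 (0.28, adjusted p = 0.0576), DMSO replicate 2 (0.23, adjusted p = 0.126) or NEDD8i replicate 1 (0.21, adjusted p = 0.18) and with upper quartile scaling (0.18, adjusted p = 0.107). UVRAG, which takes the place of ATG14 in another form of the complex, was at 0.07 ± 0.12 in A431 and fell by 0.46 ± 0.12 in CAL27.

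Of 7 relatives of WIPI1 and membrane supply genes, 4 rose and 1 fell in A431, and 5 rose and 1 fell in CAL27 (medians 0.55 and 0.62). The WIPI family genes WDR45B and WDR45 rose by 0.94 ± 0.05 and 0.62 ± 0.14 in A431 and by 0.74 ± 0.05 and 0.87 ± 0.15 in CAL27. TMEM41B, a lipid scramblase, rose by 1.12 ± 0.07 and 0.62 ± 0.07, and ATG9A, a scramblase on vesicles that seed the membrane, by 0.55 ± 0.07 and 0.76 ± 0.07. All of the last 500 exonic bases of ATG9A are shared with other genes. The 10 genes that join ATG8 proteins to lipid gave 2 higher and 1 lower in A431 and 3 higher and 3 lower in CAL27 (medians 0.11 and 0.10). ATG4D, an ATG8 protease, rose by 1.34 ± 0.09 and 0.96 ± 0.08, with 66.8% of its last 500 exonic bases shared. ATG16L1, which sets the site of joining, rose by 0.78 ± 0.09 in A431 and was at 0.02 ± 0.09 in CAL27. ATG7, the E1-like enzyme, was at -0.07 ± 0.10 in A431 and fell by 0.68 ± 0.10 in CAL27, with 100% of its last 500 exonic bases shared. ATG10, an E2-like enzyme, fell by 0.54 ± 0.18 in A431 and by 1.30 ± 0.18 in CAL27. The A431 call of ATG10 was lost without DMSO replicate 2 (-0.45, edgeR adjusted p = 0.118) or NEDD8i replicate 1 (-0.37, adjusted p = 0.211).

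Genes of fusion with the lysosome were called in both directions: of 14, 2 rose and 6 fell in A431 and 2 rose and 7 fell in CAL27 (medians -0.12 and -0.20). VPS39, a tethering subunit, fell by 0.46 ± 0.07 in A431 and 0.83 ± 0.07 in CAL27. VPS18, of the same complex, fell by 0.49 ± 0.09 in A431 and was at 0.02 ± 0.08 in CAL27. VPS11, its core subunit, fell by 0.56 ± 0.10 and 0.30 ± 0.10. The CAL27 call of VPS11 was lost without DMSO replicate 2 (-0.21, edgeR adjusted p = 0.242) or NEDD8i replicate 1 (-0.26, adjusted p = 0.119), with DESeq2 (-0.27, adjusted p = 0.0602) and with the CAL27 libraries alone (-0.28, adjusted p = 0.0773). VAMP8, a SNARE, fell by 0.54 ± 0.07 and 0.25 ± 0.07, and the CAL27 call was lost without DMSO replicate 1 (-0.21, adjusted p = 0.0702). TECPR1, another tether, was at 0.27 ± 0.15 in A431 and fell by 0.99 ± 0.15 in CAL27, with 100% of its last 500 exonic bases shared. The adaptor PLEKHM1 rose by 0.42 ± 0.09 and 0.81 ± 0.08.

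**Figure D4:**
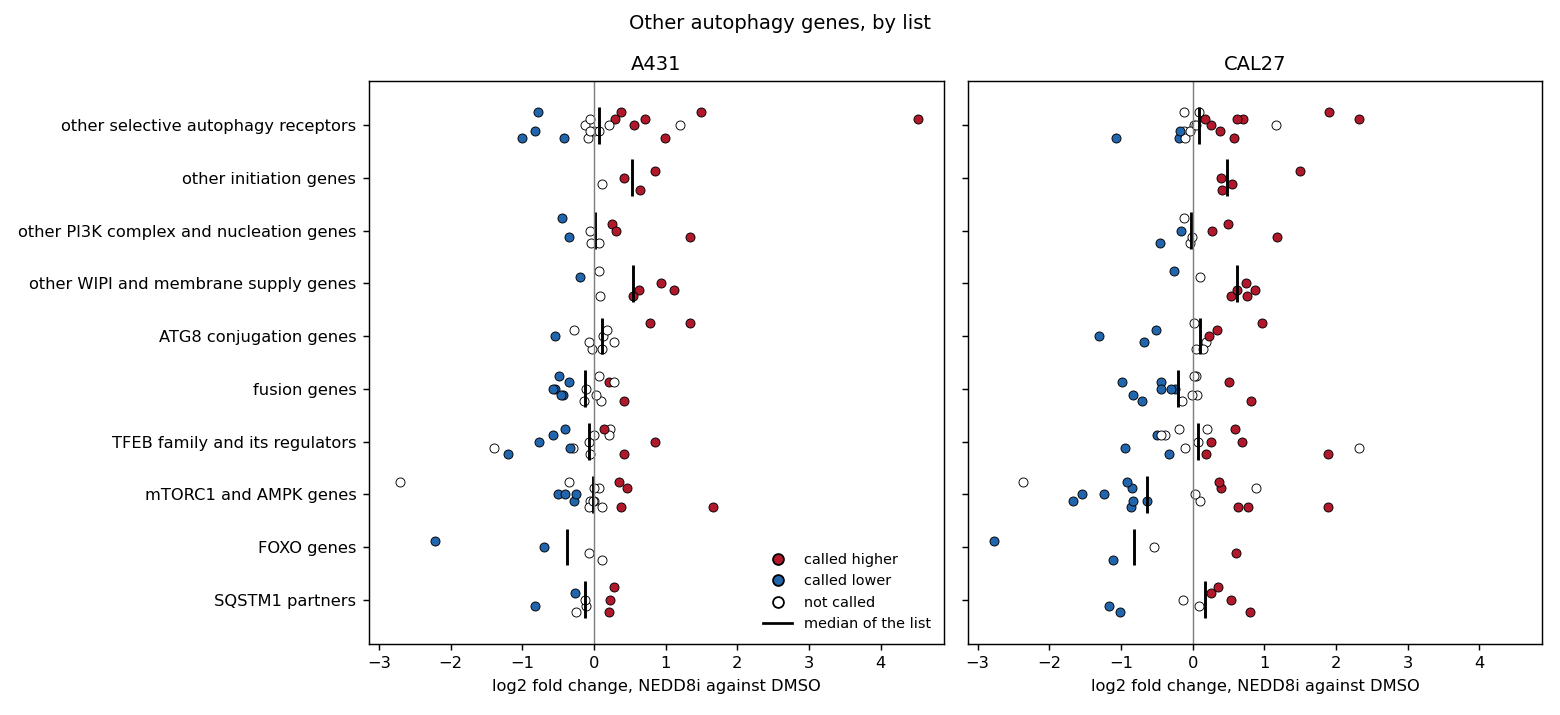
Log2 fold change under NEDD8i against DMSO of the other autophagy genes, 1 row per list, in A431 (left) and CAL27 (right), with red and blue points called higher and lower, open points not called and a bar at each list's median. BNIP3 lies farthest to the right at 4.52 in A431, and the mTORC1 and AMPK list has its median at -0.64 in CAL27.

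Regulators of TFEB and TFE3 changed in both directions. In a list of 15 that includes MITF, 3 rose and 5 fell in A431 and 5 rose and 3 fell in CAL27 (medians -0.07 and 0.07). RRAGD, on this list, had 0 counts in A431 and could not be called there. FLCN, folliculin, which keeps TFEB and TFE3 in the cytoplasm, fell by 0.77 ± 0.12 in A431 and was at 0.07 ± 0.10 in CAL27. Calcineurin removes phosphate from TFEB: its regulatory subunit PPP3R1 rose by 0.85 ± 0.07 and 0.69 ± 0.06, and its catalytic subunit PPP3CB fell by 0.33 ± 0.08 and 0.94 ± 0.08. Of the 17 mTORC1 and AMPK genes tested, 4 rose and 4 fell in A431, and 5 rose and 8 fell in CAL27 (medians -0.01 and -0.64). SESN3 and PRKAA2 had 0 counts in A431 and could not be called there, so the lines are not compared over the same detected genes. PRKAG1 had 0 counts, with 98.6% of its exonic bases in other genes' exons.

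SESN2, a leucine-sensing restraint on mTORC1, rose by 1.66 ± 0.08 in A431 and 1.88 ± 0.09 in CAL27. The mTORC1 subunit MLST8 fell by 0.51 ± 0.08 and 1.24 ± 0.08, and the inhibitory subunit AKT1S1 rose by 0.47 ± 0.05 and 0.39 ± 0.05. TSC2, which switches mTORC1 off, fell by 0.40 ± 0.07 and 1.54 ± 0.07, with 100% of its last 500 exonic bases shared with other genes. SESN3 had 0 counts in A431 and fell by 1.66 ± 0.32 in CAL27. Of 4 FOXO factors, which also drive autophagy genes, 0 rose and 2 fell in A431, and 1 rose and 2 fell in CAL27 (medians -0.38 and -0.82). FOXO6 fell by 2.22 ± 0.52 and 2.77 ± 0.56, from low counts: with NEDD8i it had 23 and 48 in A431 and 4 and 33 in CAL27. FOXO1 was at 0.11 ± 0.15 in A431 and fell by 1.11 ± 0.15 in CAL27. FOXO3 was at -0.07 ± 0.05 in A431 and rose by 0.61 ± 0.05 in CAL27. FOXO4 fell by 0.69 ± 0.21 in A431 and was at -0.53 ± 0.23 in CAL27. The A431 call of FOXO4 was lost without DMSO replicate 1 (-0.65, edgeR adjusted p = 0.0619) or NEDD8i replicate 1 (-0.70, adjusted p = 0.0599) or 2 (-0.67, adjusted p = 0.0736), and the CAL27 value was called without NEDD8i replicate 1 (-0.89, adjusted p = 0.00827).

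Of 8 genes listed as partners of SQSTM1, 3 rose and 2 fell in A431 and 4 rose and 2 fell in CAL27 (medians -0.12 and 0.17). KEAP1 stood at 78.8 and 89.2 CPM in A431 with DMSO and 97.6 and 97.1 with NEDD8i, and at 112.8 and 126.4 CPM in CAL27 with DMSO and 208.8 and 207.9 with NEDD8i. It rose by 0.80 ± 0.06 in CAL27 and by 0.21 ± 0.06 in A431. The A431 call of KEAP1 was lost without DMSO replicate 1 (0.14, edgeR adjusted p = 0.141) and with upper quartile scaling (0.14, adjusted p = 0.0765). TRIM21, a ubiquitin ligase that acts on SQSTM1, fell by 0.82 ± 0.11 and 1.16 ± 0.11. PRKCI, an atypical protein kinase C that binds it, rose by 0.29 ± 0.05 and 0.35 ± 0.05, and MAP2K5 was at -0.25 ± 0.12 in A431 and fell by 1.01 ± 0.13 in CAL27. TRAF6, a ubiquitin ligase bound by SQSTM1, was called lower in A431 (-0.26 ± 0.10) and higher in CAL27 (0.25 ± 0.09). Its A431 call was lost without any one of 6 libraries, every CAL27 library among them, with values of -0.12 to -0.26. It was also lost with the A431 libraries alone (-0.25, edgeR adjusted p = 0.0922). The CAL27 call of TRAF6 was lost without DMSO replicate 1 (0.29), DMSO replicate 2 (0.25) or NEDD8i replicate 1 (0.21).

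Genes whose levels followed each member most closely were found by Pearson's r of log2 CPM over the 8 libraries, among 9062 genes (9063 for WIPI1) with a mean of at least 10 CPM. The libraries fall into 4 groups, so a high r describes a similar pattern of group levels, which need not have the same order. SQSTM1 was followed most closely by RFLNB (r = 0.996) and NBR1 by HBP1 (0.985). MAP1LC3B was followed by CSNK1E (0.997), GABARAPL1 by PRKRIP1 (0.997) and GABARAPL2 by TTL (0.994). ULK1 was followed by DCLRE1C (0.986), ATG14 by ULBP3 (0.992) and WIPI1 by FARSB (0.977), the lowest of these. TFEB was followed by TACC2 (0.998) and TFE3 by EPHA2 (0.997). The next 2 genes by this measure were SLC25A24 and MFN2 for SQSTM1, CALM3 and SAE1 for NBR1, PGAM1 and BZW1 for MAP1LC3B, SERPINB7 and SLC4A1AP for GABARAPL1, and PDRG1 and NFATC2IP for GABARAPL2. For the remaining members they were RAD54B and TXNL1 for ULK1, ERCC8 and MVB12A for WIPI1, PPP1R8 and MORF4L1P1 for ATG14, TMEM181 and MTA1 for TFEB, and SMNDC1 and PSMD2 for TFE3.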

How the data were processed

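Per the labels' protocols, RNA for 8 libraries was extracted with an RNeasy Plus kit and the 3′ libraries were built with QuantSeq FWD. The values the authors deposited are whole-number counts per gene and library. STAR and GRCh38 are the aligner and genome named in the submitters' processing notes, without a version of STAR. Per the file headers, featureCounts 2.0.8 took filtered alignments and counted over exons of GENCODE 39 (basic), ignoring strand and counting each mate of a pair. What the filter removed was not stated there. Of counts from 1 to 40, 70.2% to 76.7% were even, so counts are not independent molecules. Reads over several genes, or with several alignments, were dropped.

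From these counts, log2 changes were fitted here with edgeR 4.0.16 in R 4.3.3: TMM scaling, filterByExpr by group, 1 quasi-likelihood fit of 4 group means over all 8 libraries, and Benjamini-Hochberg adjustment over 18738 genes, with calls under 0.05. The fit had 4 residual and 12.3 prior degrees of freedom. Standard errors are approximate, taken as the size of the log2 change over the root of its F statistic. Of 61533 identifiers, 61415 matched a symbol. Replicates were kept as separate libraries. Chi-square per degree of freedom between them was 6.30 to 13.2. Counting each mate raises this value, and spread above sampling noise can be technical, so it does not show separate cultures. The code was tested on simulated data with 200 changed genes.

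Members and gene lists were chosen with earlier results of these data known, so no list supports a direction. Named genes are the members, the other ATG8 genes, up to 3 genes per list and line with the largest change among those called, any called in opposite directions, the 3 most alike per member, and 4 NRF2 targets. Lists are described by counts and medians, without a test. Alternatives were other scalings (RLE, upper quartile), no filter or at least 1 CPM in 2 libraries, DESeq2 1.42.0, each line's libraries alone, the replicate number as a block, counts halved, and each library left out.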

Additional observations from a re-analysis of the deposited data

Results flagged for a closer look

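The CAL27 response minus the A431 response passed the edgeR test of the difference itself for the genes below, each value a difference of log2 changes over 8 libraries. No cause was tested. Among the members, CAL27 responded more upward for GABARAPL1 (1.59), GABARAPL2 (0.77), MAP1LC3B (0.76), NBR1 (0.70), ATG14 (0.61) and TFE3 (0.51), and more downward for TFEB (-3.13), WIPI1 (-1.92) and SQSTM1 (-0.22).

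The difference was also called for other receptors and early genes: BNIP3 (-2.20), BNIP3L (0.40), CALCOCO1 (1.20), ATG101 (0.65), ATG13 (0.44), AMBRA1 (0.33), UVRAG (-0.53), TMEM41B (-0.50) and WDR45B (-0.20). Among conjugation and fusion genes it was called for ATG4D (-0.38), ATG16L1 (-0.76), ATG10 (-0.77), ATG7 (-0.60), VAMP8 (0.29), VPS18 (0.51), TECPR1 (-1.26), VPS39 (-0.36) and PLEKHM1 (0.39). Among regulators it was called for MITF (3.09), FLCN (0.84), PPP3CB (-0.61), MLST8 (-0.74), TSC2 (-1.14), FOXO1 (-1.22) and FOXO3 (0.68), and among SQSTM1 partners for TRAF6 (0.51), MAP2K5 (-0.76) and KEAP1 (0.59).

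Several of these calls were lost under an alternative. The SQSTM1 losses stand beside its result. WDR45B lost its call with DESeq2 (-0.16), RLE (-0.16), upper quartile scaling (-0.12) and both other filters (-0.18 and -0.20). It also lost it without A431 DMSO replicate 1 (-0.18) or 2 (-0.19), A431 NEDD8i replicate 1 (-0.16), CAL27 DMSO replicate 1 (-0.14) or CAL27 NEDD8i replicate 2 (-0.21). UVRAG lost it with upper quartile scaling (-0.45) and without A431 DMSO replicate 1 (-0.33), A431 NEDD8i replicate 1 (-0.42), CAL27 DMSO replicate 1 (-0.47) or 2 (-0.56), or CAL27 NEDD8i replicate 2 (-0.50). ATG4D lost it with DESeq2 (-0.34), upper quartile scaling (-0.30) and without A431 DMSO replicate 1 (-0.29), A431 NEDD8i replicate 1 (-0.37) or 2 (-0.38), CAL27 DMSO replicate 1 (-0.29) or CAL27 NEDD8i replicate 2 (-0.35). ATG10 lost it with DESeq2 (-0.73) and without A431 DMSO replicate 1 (-0.67), A431 NEDD8i replicate 2 (-0.58), CAL27 DMSO replicate 1 (-0.70) or 2 (-0.81), or CAL27 NEDD8i replicate 2 (-0.76).

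VAMP8 lost its call without A431 DMSO replicate 1 (0.27), A431 NEDD8i replicate 2 (0.24), CAL27 DMSO replicate 2 (0.28) or CAL27 NEDD8i replicate 2 (0.22). ATG101 lost it without A431 NEDD8i replicate 2 (0.49), CAL27 DMSO replicate 1 (0.48) or CAL27 NEDD8i replicate 2 (0.52). AMBRA1 lost it without A431 DMSO replicate 2 (0.26), A431 NEDD8i replicate 2 (0.32) or CAL27 DMSO replicate 1 (0.34). PLEKHM1 lost it without A431 NEDD8i replicate 2 (0.38), CAL27 DMSO replicate 1 (0.35) or CAL27 NEDD8i replicate 1 (0.30). VPS39 lost it without A431 DMSO replicate 1 (-0.28) or CAL27 DMSO replicate 2 (-0.32).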

How the results depend on the processing

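No called value changed sign under any alternative. Several uncalled values of the members ranged across 0. These were WIPI1 for CAL27 against A431 under NEDD8i (-1.15 to 0.04) and the ULK1 difference between responses (-0.18 to 0.01). The others were SQSTM1 in CAL27 (-0.05 to 0.01), NBR1 in CAL27 (-0.0 to 0.05) and MAP1LC3B between lines under DMSO (-0.01 to 0.05). Over the 10 members, 5 comparisons and all alternatives, 751 values kept their call, 16 lost it and 3 gained it, each named beside its result above. For other named genes these were 2105, 79 and 20. Of 2 members lower in A431, 1 remained called lower without A431 DMSO replicate 2 or NEDD8i replicate 1 (1 to 2 when leaving out a library). Of 2 lower in CAL27, 1 was called lower with DESeq2 and without CAL27 DMSO replicate 1 or 2 or NEDD8i replicate 2 (1 to 2). Leaving out a library gave 6864 to 8354 calls in A431 and 7766 to 9591 in CAL27. Upper quartile scaling moved the median of all genes from 0.04 to 0.16 for CAL27 against A431 under NEDD8i.

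Samples with the same replicate number did not deviate together (correlations of -0.03 to 0.02). With 2 libraries per group, this cannot show whether samples of the same number were handled together. With the replicate number as a block, 4142 genes rose and 3810 fell in A431, and 4260 and 4826 in CAL27. The counts of members called in each comparison did not move, and among the other ATG8 genes MAP1LC3A lost its call. Low counts limit WIPI1, with 106 to 376 in a library, TFEB in CAL27 with NEDD8i, with 122 and 146, and the other ATG8 genes, with at most 121. They also limit FOXO6 with NEDD8i, with 4 to 48 counts.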
